A study of Homo sapiens with 14 samples.

Results

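The 4 libraries numbered replicate 1 were compared with the 4 numbered replicate 3, each pair within its own group, among 14 RNA sequencing libraries of human cells in 4 groups. The members of the comparison are thus 8 of the 14 libraries, chosen by their number alone, and 16279 of 58051 genes in the deposited table, those whose normalized read count reached 10 in 3 or more of the 8. The comparison describes variation between cultures of the same kind that the 4 groups have in common. No library serves in more than 1 pair, but both OE groups carry the same construct, and the labels do not say that their cultures were separate. The labels do not say that a shared number marks a shared culture, plate or day, nor that replicates are separate differentiations, so the p-values measure the spread between these libraries, which may be partly technical.

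The sources describe all cells as MGE-like progenitors at day 25 of differentiation from H9, an established human embryonic stem cell line. The medial ganglionic eminence, or MGE, is the part of the embryonic ventral forebrain that gives rise to many inhibitory neurons. WT is the wild type, KO has CTNNB1 (which encodes beta-catenin) knocked out, and OE carries an inducible CTNNB1 overexpression construct. OE without Dox had no doxycycline, and OE with Dox had doxycycline at 0.1 µg/mL from day 17. Every group passed through the same steps, with block of TGF-beta and BMP signalling first, sonic hedgehog and a smoothened activator next, and free-floating neurospheres at the end. No other group had doxycycline, so drug and transgene cannot be told apart, and how the KO was made, which form of CTNNB1 the construct holds and how many clones were used is not given in the sources used here.

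The 8 libraries held 5233270 to 5639725 reads assigned to genes, recovered from the deposited values, so their depths were close. CTNNB1 (ENSG00000168036, hg38 chromosome 3, 41194741 to 41260096) had a normalized count of 23860 to 31290 in the 3 OE with Dox libraries, 2090 to 2779 in the 5 KO libraries and 3084 to 4393 in the 6 others. Its log2 fold between replicates 1 and 3 was -0.002 (SE 0.12, limma adjusted p = 0.99), with the sign of the difference split between the groups. Of the MGE markers, NKX2-1, the transcription factor that defines this domain, stood at 274 to 3475 in the 14 libraries. Marker levels differed between groups. In replicate 1 of WT, KO, OE without Dox and OE with Dox, the MGE markers summed to 3220, 9499, 10109 and 3288. Markers of the lateral and caudal ganglionic eminences (LGE and CGE) summed to 10767, 1860, 5404 and 7440. These sums are over different genes, so they are not shares of cells. None of the 14 tested MGE markers was called between replicates 1 and 3 by limma, edgeR or DESeq2, and 0 had an unadjusted p under 0.05 (median log2 fold 0.06). Of all 16279 tested genes, 2130 higher and 1801 lower in replicate 1 had such a p with limma.

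Neurospheres have no vessels, and cells inside them receive less oxygen and nutrients than cells at the surface. At low oxygen the factor HIF1A, whose own prolyl hydroxylases then stop marking it for breakdown, binds the short DNA core ACGTG or GCGTG and raises genes of glucose uptake, glycolysis, lactate export, collagen hydroxylation and vessel growth. Proliferating progenitors express the genes of DNA replication under E2F factors before S phase and the genes of the mitotic spindle before division. Both programmes are known to vary with the size, density and feeding of cultures.

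Replicate 1 differed from replicate 3 in a direction common to the groups for many genes. Levels below are normalized read counts, folds are log2 of replicate 1 minus replicate 3 on the scale of the normalized count plus 1, and p is that of limma adjusted by Benjamini-Hochberg over the 16279 genes, two-sided, with 0.05 as the threshold of a call. Of the 16279 genes, 847 (5.2%) were called: 457 (2.81%) were higher in replicate 1 and 390 (2.4%) lower. The difference had the same sign in all 4 groups for 2684 genes on the higher side (16.5%) and 2454 on the lower side (15.1%). Called differences were mostly modest, with a median absolute log2 fold of 0.62 among the higher and 0.64 among the lower genes, and 72 higher and 34 lower genes differed by 2-fold or more. All 457 higher genes and 389 of the 390 lower genes had the sign of the call in every group.

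**Figure D1:**
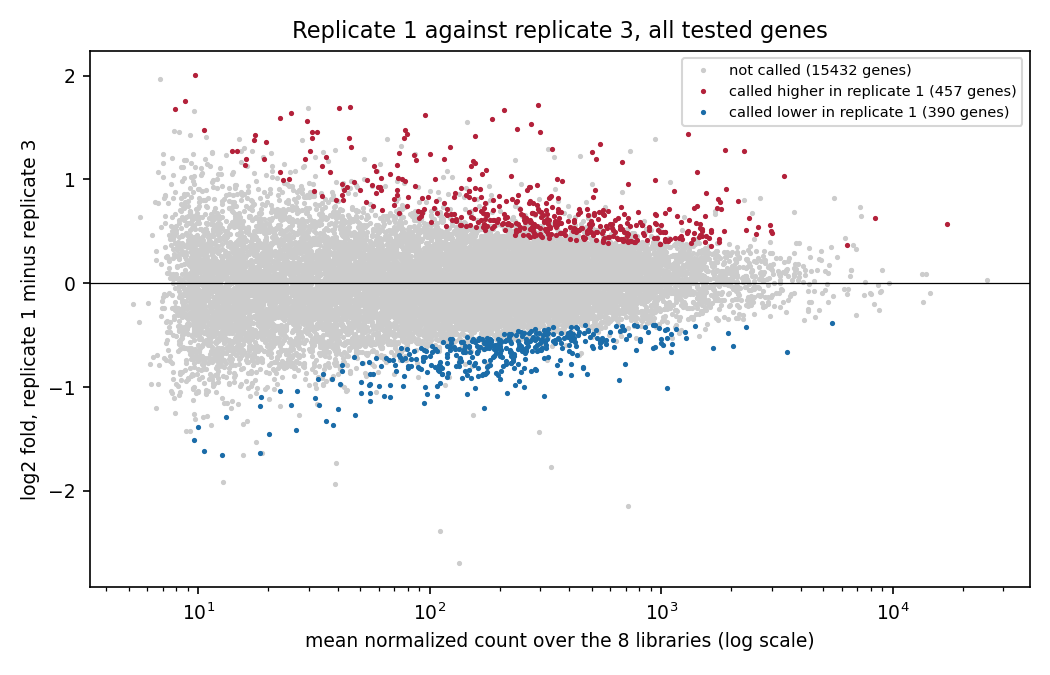
Log2 fold between replicates 1 and 3 (vertical axis) against the mean normalized count over the 8 libraries (horizontal axis, log scale), 1 point per tested gene, with called genes in red (457 higher in replicate 1) and blue (390 lower). Called genes are found at nearly all levels, and most lie within 1 log2 unit of 0.

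The counts depended on which pair was left out. Without the WT pair they were 40 higher and 24 lower, without the KO pair 67 and 48, and without the OE without Dox pair 99 and 74. Without the OE with Dox pair they were 588 and 429. All 457 and all 390 genes kept their sign in each of these fits. For the 457 and for 389 of the 390 this was fixed in advance, since their sign was the same in every group.

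The other pairs of numbers gave far fewer calls at the adjusted threshold in the same fit. In the comparison of 1 and 3, 2130 higher and 1801 lower genes had an unadjusted limma p under 0.05. By that measure the gap to 2 against 3 was smaller. Replicate 2 against replicate 3 gave 18 higher and 9 lower of 16306 genes with limma (0.166% in either direction), 27 and 13 with edgeR and 80 and 32 with DESeq2, and 1384 and 1019 genes had an unadjusted p under 0.05. Replicate 1 against replicate 2 gave 0 of 16285 with limma (0.0%), where 325 higher and 428 lower genes had an unadjusted p under 0.05, 0 with edgeR, and 0 higher and 4 lower with DESeq2. Each of these shares 4 libraries with the comparison of 1 and 3, so they are not separate evidence. At the 457 genes called higher, the median of replicate 2 minus replicate 3 was 0.37, 0.38, 0.37 and 0.43 for WT, KO, OE without Dox and OE with Dox. It stood beside 0.72, 0.64, 0.56 and 0.56 for replicate 1 minus replicate 3. At the 390 lower genes it was -0.33, -0.42, -0.45 and -0.44, against -0.77, -0.63, -0.62 and -0.62. Both differences use the same replicate 3, which was low or high at these genes by the choice of them. The KO group has 2 further libraries, and in them these genes lay near replicate 3: the median of KO replicate 4 minus KO replicate 3 was 0.09 at the higher and 0.03 at the lower genes, and for KO replicate 5 it was -0.01 and 0.14.

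Across the 16279 genes, the within-group differences of any 2 groups had a Pearson correlation between 0.138 (KO and OE with Dox) and 0.361 (OE without Dox and OE with Dox). Over the 9362 genes with a mean of at least 100, the 6 correlations lay between 0.184 and 0.522. These are correlations across genes, which are not independent replicates, and the groups share no library, though all values share 1 scaling of the table. In a principal component analysis of the deviations of replicates 1, 2 and 3 from their group means, the first component held 26.7% of the variance. On it the 4 replicate 3 libraries lay between 22.7 and 28.8, and the 8 others between -34.2 and 8.91.

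**Figure D2:**
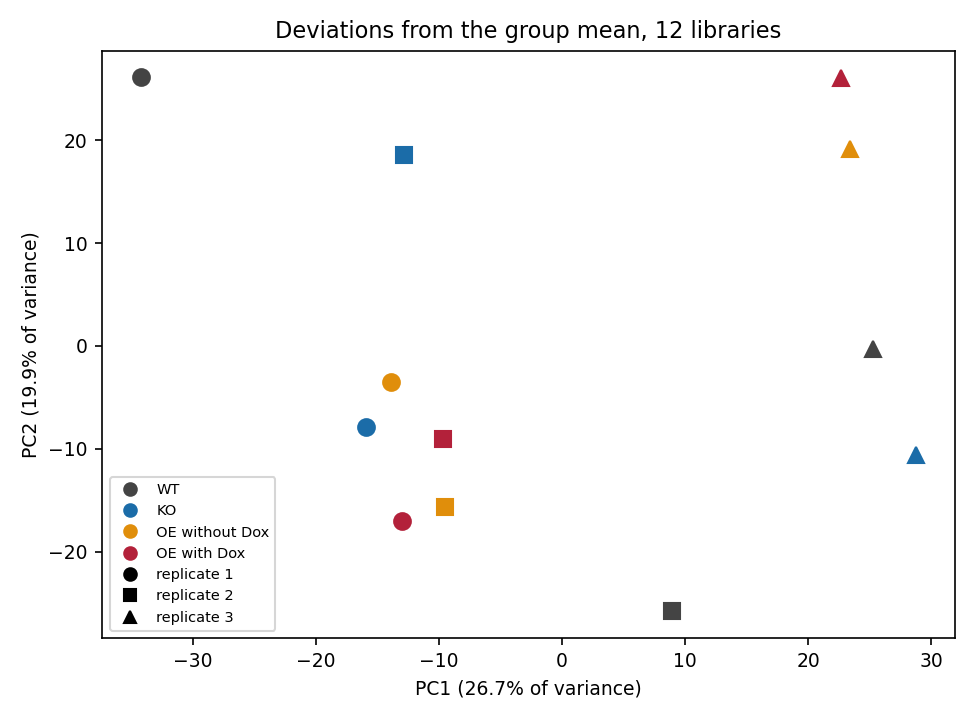
First and second principal components of each library's deviation from the mean of its group, over replicates 1, 2 and 3 of the 4 groups (colour is the group, shape the replicate number). The 4 replicate 3 libraries are at the right, at 22.7 to 28.8 on the first component, and WT replicate 1 is farthest to the left at -34.2.

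Among the 37 gene lists, that of the response to low oxygen and of glycolysis had the largest median rise. Of 26 tested genes of this list, 14 were called higher in replicate 1 and 0 lower, which is 53.8% beside 2.81% of all tested genes, and 20 were higher in all 4 groups, beside 16.5% of all. The median log2 fold of the list was 0.92, against 0.01 over all tested genes. By group the list's median difference was largest in WT (1.18), then 1.06 in OE without Dox, 0.85 in OE with Dox and 0.43 in KO. Replicate 1 was the higher for 26 of the 26 genes in WT, 25 in each OE group and 22 in KO. The calls were 6 without the WT pair, 14 without the KO pair, 10 without the OE without Dox pair and 13 without the OE with Dox pair.

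Promoter sequences of members of this list and of the DNA replication list are shown to make visible the short words that each programme's factors are known to bind. They come from RefSeq (GRCh38.p14), and the windows searched were the 250 bases before each start site. Printed here, 5′ to 3′ on the gene's own strand, is the longest stretch of the window that no annotated exon covers. The stretch of PFKFB4 is chr3:48556924-48556982 (minus strand, within the gene by GENCODE 44), that of ALDOC chr17:28576949-28577145 (minus strand), and that of TYMS chr18:657598-657652 (plus strand, where TYMSOS runs antisense). Capitals mark ACGTG or GCGTG on either strand in PFKFB4 and ALDOC, and an E2F word, here TTTCCCGC on the opposite strand, in TYMS:
PFKFB4: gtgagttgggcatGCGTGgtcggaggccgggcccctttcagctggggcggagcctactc
ALDOC: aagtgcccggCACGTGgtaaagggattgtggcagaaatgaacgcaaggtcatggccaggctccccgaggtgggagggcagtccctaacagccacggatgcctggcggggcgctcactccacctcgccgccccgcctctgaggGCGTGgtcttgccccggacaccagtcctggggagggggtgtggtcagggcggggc
TYMS: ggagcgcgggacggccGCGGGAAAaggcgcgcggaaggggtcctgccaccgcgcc

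The whole ALDOC window held 5 matches, of which the first 2 are the same 6 letters read on both strands. The window of SLC2A1 held none. Of the 32 windows found for 22 genes of the hypoxia list, 25 (78.1%) held ACGTG or GCGTG on either strand. The word is common: 54.5% of 16493 windows of tested genes and 43.2% of all 35116 windows held it. It was in 55.0% of the windows of genes called higher and in 57.6% of those of genes called lower. The DNA replication list, which is not a hypoxia list, held it in 24 of 36 windows (66.7%). A match describes the letters only and says nothing of binding in these cells.

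Of the transporters, SLC2A1 and SLC16A3 were called higher in replicate 1, and SLC2A3, a further glucose transporter of the list, had a log2 fold of 0.68 that did not pass (adjusted p = 0.061). SLC2A1 (hg38 chromosome 1, 42925353 to 42958893), the main glucose transporter of the early nervous system, stood at 3173, 1508, 1872 and 3294 in replicate 1 of WT, KO, OE without Dox and OE with Dox and at 1508, 824, 882 and 2169 in replicate 3. Replicate 1 was the higher in each group, although the levels of different groups overlap. The log2 fold was 0.91 (SE 0.11, adjusted p = 0.0068), with an adjusted p of 8.3e-04 to 0.049 when 1 pair was left out. SLC16A3, the lactate exporter MCT4, stood at 419, 330, 270 and 354 in replicate 1 and at 111, 216, 63.5 and 139 in replicate 3, in the same order of groups, so that no replicate 3 library reached the lowest replicate 1. Its log2 fold was 1.48 (SE 0.23, adjusted p = 0.015), but without the WT pair the adjusted p was 0.068.

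Enzymes of glycolysis rose at several steps of the pathway. PFKFB4, which makes the activator of phosphofructokinase, stood at 462, 493, 446 and 336 in replicate 1 and at 129, 262, 128 and 137 in replicate 3, with no overlap (log2 fold 1.46, SE 0.16, adjusted p = 0.0065). ALDOC (chromosome 17, 28573115 to 28576948), the aldolase of neural tissue, stood at 396, 283, 215 and 204 against 112, 161, 70.7 and 46.1 (1.59, SE 0.19, adjusted p = 0.0073), again with no overlap. ALDOA, the aldolase of most tissues, stood at 6757, 4561, 3930 and 3098 against 2446, 2820, 1722 and 1815 (1.03, SE 0.13, adjusted p = 0.0073). The KO difference was the smallest of the 4 for each of these 3 genes. GPI, which turns glucose 6-phosphate into fructose 6-phosphate, stood at 3754, 3071, 2392 and 1546 against 1084, 1429, 807 and 980 (1.28, SE 0.17, adjusted p = 0.011), and without the KO pair its adjusted p was 0.058. PFKP, a phosphofructokinase that is not on the list, had a log2 fold of 1.53 (SE 0.23, adjusted p = 0.015). Its adjusted p was 0.069 without the WT pair and 0.054 without the OE with Dox pair. The calls of PFKFB4, ALDOC and ALDOA held whichever pair was left out, with adjusted p of 0.0027 to 0.049.

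Not every gene of glycolysis was called. GAPDH had a log2 fold of 0.24 (adjusted p = 0.25) and PKM, the last enzyme of the pathway, 0.31 (adjusted p = 0.071). HK2, the first enzyme, had a large mean log2 fold of 1.27 that did not pass (adjusted p = 0.15). EGLN3, a hydroxylase that acts on HIF1A and is itself a target, had the smallest log2 fold of the list at 0.06 (adjusted p = 0.93). These 4, and VEGFA and PGK1 below, were picked after their values were seen.

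Among genes of secreted factors and of collagen hydroxylation, STC1, VEGFA, PLOD2 and P4HA2 were called higher, while ADM, a secreted peptide of the hypoxia list picked after its values were seen, was not (0.93, adjusted p = 0.17). STC1, a secreted glycoprotein hormone, stood at 586, 290, 127 and 278 in replicate 1 of WT, KO, OE without Dox and OE with Dox and at 161, 118, 49.0 and 60.8 in replicate 3. The difference held in each group, with a log2 fold of 1.67 (SE 0.17, adjusted p = 0.0041). VEGFA, the vessel growth factor, stood at 1160, 1632, 1376 and 707 against 507, 1214, 605 and 312 (0.996, SE 0.14, adjusted p = 0.0086). PLOD2 (chromosome 3, 146035139 to 146163725), a lysyl hydroxylase of collagen, stood at 569, 1004, 719 and 730 against 203, 640, 218 and 255. Its log2 fold was 1.34 (SE 0.16, adjusted p = 0.0073), though KO replicate 3 was above WT replicate 1. P4HA2, a prolyl hydroxylase of collagen, had its largest difference in KO (2.30) and its smallest in OE with Dox (0.56), for a log2 fold of 1.416 (SE 0.26, adjusted p = 0.023). Its adjusted p without the WT, KO and OE without Dox pairs was 0.10, 0.059 and 0.065. The calls of STC1 and PLOD2 held whichever pair was left out.

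PPFIA4 (chromosome 1, 203026491 to 203078740), a liprin, belongs to a family of scaffold proteins at synapses. It had the largest log2 fold among the genes called with a mean of at least 100 and the same sign in 4 groups. It stood at 321, 521, 558 and 373 in replicate 1 and at 88.4, 242, 116 and 118 in replicate 3, with no overlap, and its log2 fold was 1.72 (SE 0.17, adjusted p = 0.0041). FAM162A, a mitochondrial membrane protein, stood at 464, 449, 455 and 500 against 157, 341, 155 and 157 (1.29, SE 0.20, adjusted p = 0.016). Without the WT pair its adjusted p was 0.081 and without the OE without Dox pair 0.056. PGK1P1, a processed pseudogene on the X chromosome, had 1.31 (SE 0.22, adjusted p = 0.014, and 0.077 without the WT pair). It is nearly the same sequence as PGK1, which had 1.28 (adjusted p = 0.016), so how the counting divided reads between the pair is uncertain.

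**Figure D3:**
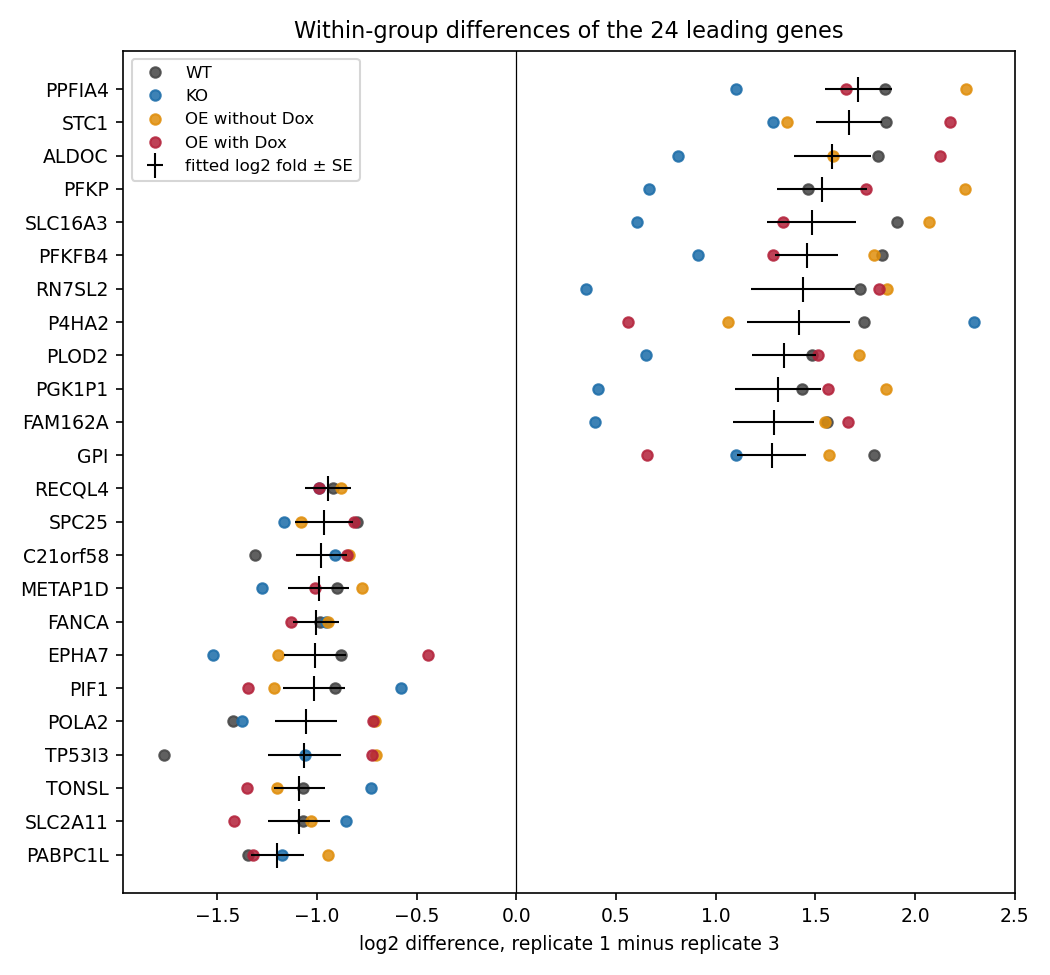
Log2 difference between replicates 1 and 3 within each group (coloured points) and the fitted log2 fold with its standard error (black), for the 12 genes with the largest log2 fold in each direction among those called with a mean of at least 100 and the same sign in 4 groups. All points of a gene are on 1 side of 0 by the choice of genes, and KO is the lowest point for 10 of the 12 higher genes.

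Of the 24 leading genes in the plot of within-group differences, 11 were called whichever pair was left out: PPFIA4, STC1, ALDOC, PFKFB4 and PLOD2 among the higher and PABPC1L, SLC2A11, TONSL, FANCA, C21orf58 and RECQL4 among the lower genes. Of the 24, 11 lost the call without the WT pair, 7 without the KO pair, 3 without the OE without Dox pair and 2 without the OE with Dox pair.

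The libraries that the comparison left out did not all follow their number in the hypoxia list. In both OE groups replicate 2, not replicate 1, was the highest library: its median over the 26 genes lay 1.847 above replicate 3 without Dox and 1.496 with Dox, and it was above replicate 1 for 25 and 23 of the 26 genes. In WT replicate 2 was 0.34 above replicate 3 and was above replicate 1 for 1 gene. In KO it was 0.05 above replicate 3, KO replicate 4 was -0.11 from replicate 3 and KO replicate 5 0.04. SLC2A1 shows this gene by gene: replicate 2 stood at 1930 in WT and 1075 in KO, between replicates 1 and 3, but at 4186 and 5233 in OE without and with Dox, above both. The same held for STC1, at 177 and 290 in WT and KO and at 570 and 626 in OE without and with Dox. In a fit of all 12 libraries numbered 1 to 3, where replicate 2 enters the spread, 4 of the 26 genes were called between 1 and 3, and SLC2A1, STC1, PFKFB4 and ALDOA had an adjusted p of 0.14, 0.18, 0.14 and 0.094. The range of the list within a group was widest in the OE groups. The summed normalized count of the list was 22454 to 61716 in OE without Dox, 23404 to 50983 in OE with Dox, 27050 to 53335 in WT and 34977 to 44116 in KO.

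**Figure D4:**
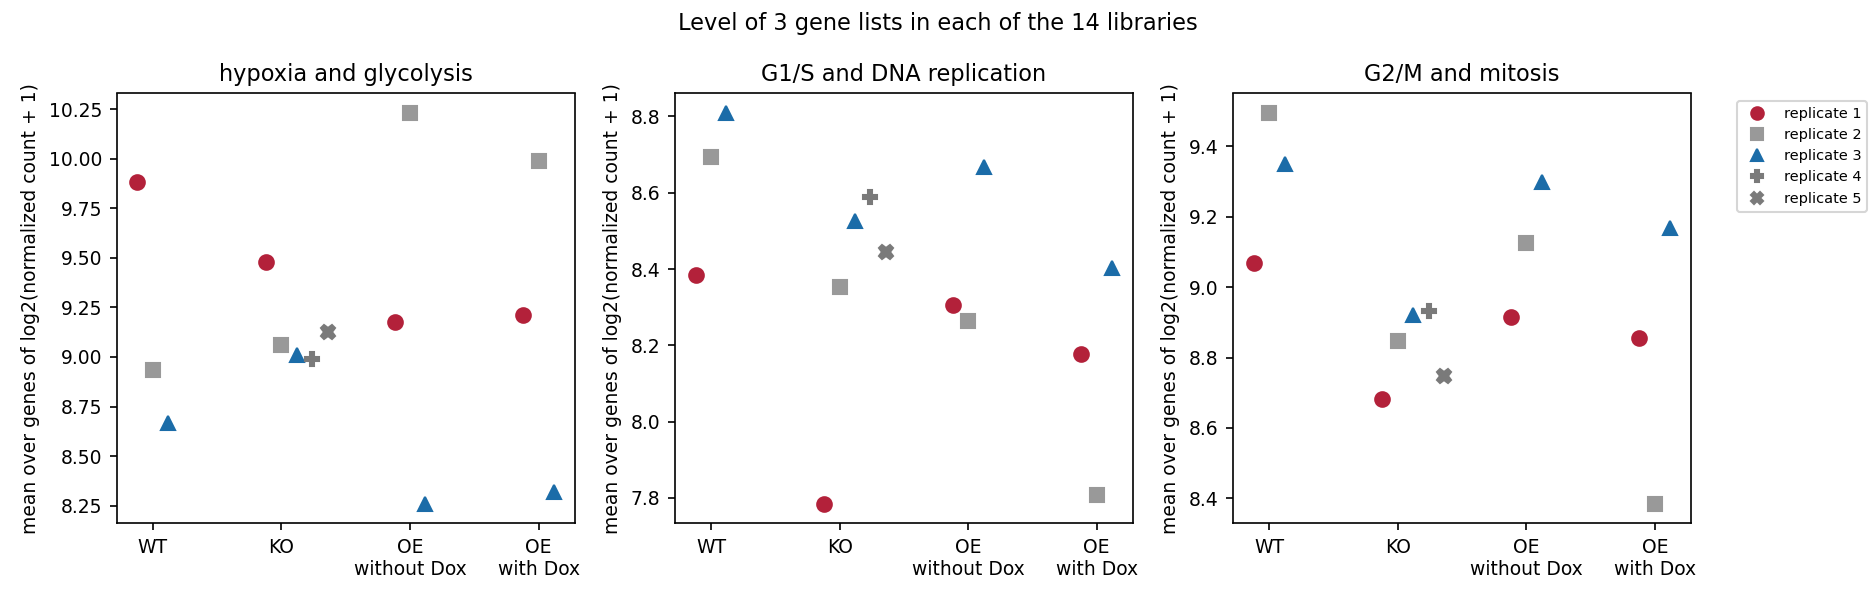
Mean over the genes of a list of log2 of the normalized count plus 1, for the hypoxia and glycolysis, the G1/S and DNA replication and the G2/M and mitosis lists, in each of the 14 libraries by group (colour and shape are the replicate number). In the left panel replicate 1 is above replicate 3 in each group and replicate 2 is highest in both OE groups. In the middle and right panels replicate 1 is below replicate 3 in each group.

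Genes of DNA replication were lower in replicate 1. Of 30 tested genes of the G1/S list, 9 were called lower and 0 higher, which is 30.0% beside 2.4% of all tested genes, and 22 were lower in all 4 groups, beside 15.1% of all. The median log2 fold was -0.46, with group medians of -0.41, -0.77, -0.36 and -0.20 for WT, KO, OE without Dox and OE with Dox. The calls were 1 without the WT, the KO or the OE without Dox pair and 14 without the OE with Dox pair, while the median stayed between -0.55 and -0.34. In bulk RNA, fewer cells of a kind and less RNA per cell cannot be told apart, so a lower level here is not a count of cycling cells.

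RRM2 (chromosome 2, 10120698 to 10211725), the subunit of ribonucleotide reductase that limits the supply of DNA building blocks, stood at 454, 212, 340 and 333 in replicate 1 of WT, KO, OE without Dox and OE with Dox and at 738, 420, 585 and 577 in replicate 3. Its log2 fold was -0.81 (SE 0.11, adjusted p = 0.0075), between -0.99 and -0.70 in the 4 groups, and the call held whichever pair was left out. MCM10, which helps to load the replication machinery, stood at 177, 147, 188 and 166 against 331, 234, 318 and 234, with no overlap (-0.71, SE 0.12, adjusted p = 0.015). CDC45, a part of the replicative helicase, stood at 80.5, 59.1, 74.1 and 92.3 against 164, 125, 132 and 115 (-0.81, SE 0.17, adjusted p = 0.024). MCM10 and CDC45 lost their calls without each pair except OE with Dox, with adjusted p between 0.059 and 0.11. The E2F words TTTCCCGC, TTTGGCGC, TTTCGCGC and TTTGCCGC, searched on both strands, were in 13 of 36 windows of this list (36.1%), in 7.98% of the windows of genes called lower, in 2.17% of those of genes called higher and in 3.98% of those of tested genes. TYMS, whose stretch is printed above, held 1, and MCM10 held none.

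Of the 12 leading genes called lower, 5 act in DNA replication or repair: POLA2, FANCA, TONSL, RECQL4 and PIF1. POLA2, a subunit of DNA polymerase alpha, had -1.06 on the same scale (SE 0.16, adjusted p = 0.0098, and 0.057 to 0.058 without the KO or the WT pair). FANCA (chromosome 16, 89726683 to 89816977), the core protein of the Fanconi anaemia pathway of crosslink repair, stood at 158, 140, 210 and 168 in replicate 1 and at 314, 273, 406 and 370 in replicate 3. There was no overlap, and the log2 fold was -1.004 (SE 0.11, adjusted p = 0.0067). TONSL, which acts at stalled replication forks, stood at 241, 167, 196 and 184 against 507, 278, 452 and 471 (-1.09, SE 0.13, adjusted p = 0.0068). RECQL4, a helicase of replication and repair, stood at 213, 116, 169 and 168 against 404, 231, 312 and 335 (-0.94, SE 0.11, adjusted p = 0.0068). The 4 within-group differences of RECQL4 spanned only -0.99 to -0.88, the narrowest span among the 24 leading genes. PIF1, a further helicase, had -1.01 (SE 0.16, adjusted p = 0.011, and 0.055 without the WT pair).

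Other leading lower genes have roles outside replication. PABPC1L (chromosome 20, 44910060 to 44959035), a poly(A)-binding protein known from oocytes, stood at 107, 65.6, 132 and 112 in replicate 1 and at 274, 149, 255 and 281 in replicate 3, with no overlap. Its log2 fold of -1.20 (SE 0.13, adjusted p = 0.0065) was the largest fall among the genes called with a mean of at least 100 and the same sign in 4 groups. SLC2A11, a sugar transporter, stood at 57.8, 62.8, 78.6 and 70.2 against 122, 114, 161 and 189 (-1.09, SE 0.15, adjusted p = 0.0087), opposite in sign to the glucose transporter SLC2A1. EPHA7, an ephrin receptor of the developing forebrain, had differences from -1.52 in KO to -0.44 in OE with Dox. Its log2 fold was -1.01 (SE 0.16, adjusted p = 0.013), and it lost the call without the WT (0.064) or the KO pair (0.052). METAP1D, a mitochondrial methionine aminopeptidase, had -0.99 (SE 0.15, adjusted p = 0.011), and without the WT or KO pair 0.051 and 0.059. C21orf58, of which no role is given here, had -0.98 (SE 0.13, adjusted p = 0.0075).

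Genes of mitosis were lower as well, by less. Of 30 tested genes of the G2/M list, 8 were called lower and 0 higher, which is 26.7% beside 2.4% of all, and 18 were lower in all 4 groups. The median log2 fold was -0.32, and the group medians lay between -0.36 and -0.25. Without the WT, KO or OE without Dox pair 0 of the 30 were called by limma, where 15, 17 and 13 had an unadjusted p under 0.05, and without the OE with Dox pair 8 were, with medians of -0.34 to -0.30. HMMR, a spindle protein, stood at 127, 63.7, 97.9 and 227 in replicate 1 and at 233, 154, 203 and 282 in replicate 3 (-0.87, SE 0.16, adjusted p = 0.017). DLGAP5, which stabilises spindle fibres, had -0.56 (SE 0.11, adjusted p = 0.018) and TACC3, a centrosomal spindle protein, -0.54 (SE 0.11, adjusted p = 0.021). SPC25, a kinetochore protein that is not on the list, had -0.97 (SE 0.15, adjusted p = 0.011). HMMR, DLGAP5 and TACC3 lost their calls without the WT, the KO or the OE without Dox pair (adjusted p 0.059 to 0.11), and SPC25 without the KO pair (0.056). MKI67, the most used marker of cycling cells, had a log2 fold of -0.13 (adjusted p = 0.45).

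The cell cycle lists did not mirror the hypoxia list in every library. Over the G2/M genes, OE with Dox replicate 2 was below replicate 3 for all 30 and below replicate 1 for all 30, with a median of -0.78 from replicate 3, and it was also the highest library of its group in the hypoxia list. In OE without Dox, where replicate 2 was highest in the hypoxia list as well, it was only 0.16 below replicate 3 and above replicate 1 for 23 of the 30 genes. WT replicate 2 was above replicate 3 by 0.15. No relation between the lists across libraries was tested.

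Of 9 tested of the 23 listed histone genes, 3 were called higher and 0 lower (33.3% beside 2.81% of all), with a median of 0.66. The group medians were 0.46, 1.21, -0.005 and 0.51 for WT, KO, OE without Dox and OE with Dox, so OE without Dox, with 4 of 9 genes above 0, did not show the direction. The calls were 1 without the WT pair, 1 without the OE without Dox pair and 3 without the OE with Dox pair, and none of the 3 passed limma's test without the KO pair. H1-2, a linker histone made in S phase, stood at 114, 201, 86.0 and 91.4 in replicate 1 and at 58.9, 42.5, 55.3 and 46.1 in replicate 3 (1.19, SE 0.24, adjusted p = 0.026). H2BC5 had 0.75 (SE 0.18, adjusted p = 0.038). H1-2 and H2BC5 lost the call without the KO pair (adjusted p = 0.071 and 0.13) and without the WT pair (0.088 and 0.090), and H2BC5 also without the OE without Dox pair (0.13). Most such messages have no poly(A) tail, so their level depends on the RNA selection, which is not given in the sources used here.

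Of 23 tested genes of the unfolded protein and amino acid stress response, 5 were called higher and 0 lower (21.7% beside 2.81% of all), and the list median was 0.25. They are ATF4, SLC7A5, DDIT4, STC2 and HERPUD1, the last of these at the edge of the threshold. ATF4, the transcription factor at the centre of the amino acid response, stood at 1572, 1119, 873 and 957 in replicate 1 and at 871, 807, 641 and 659 in replicate 3, so that the lowest replicate 1 was just above the highest replicate 3 (0.58, SE 0.11, adjusted p = 0.016). SLC7A5, a carrier of large amino acids, had 0.53 (SE 0.12, adjusted p = 0.029), and DDIT4, an inhibitor of the growth kinase mTORC1 that low oxygen also raises, had 0.99 (SE 0.22, adjusted p = 0.042). Without the WT, KO or OE without Dox pair none of the 5 was called. In the fit of 12 libraries 0 of the 23 genes were called, and ATF4, SLC7A5 and DDIT4 had an adjusted p of 0.052, 0.092 and 0.35. The chaperones of this list were not: HSPA5 had 0.12 (adjusted p = 0.64) and HSP90B1 0.25 (adjusted p = 0.22).

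Of 12 tested heat shock genes, 2 were called, both lower, beside 2.4% of all tested genes, and the list median was -0.17. The group medians were -0.14, 0.25, -0.50 and -0.21 for WT, KO, OE without Dox and OE with Dox, so the list as a whole had no common direction. HSPA8, the constitutive chaperone of the cytosol, stood at 2919, 2191, 1991 and 3778 in replicate 1 and at 4579, 3814, 3588 and 4876 in replicate 3 (-0.67, SE 0.11, adjusted p = 0.011). HSP90AA1 had -0.39 (SE 0.09, adjusted p = 0.038). Both lost the call without the WT, KO or OE without Dox pair, with adjusted p of 0.058 to 0.20.

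The p53 targets were split, with 3 of 20 higher, beside 2.81% of all tested genes, and 2 lower, beside 2.4% (median 0.12). TP53INP1 was higher (0.61, SE 0.11, adjusted p = 0.015), while BAX, which opens the mitochondrial membrane in apoptosis, was lower (-0.72, SE 0.13, adjusted p = 0.016). TP53I3, an oxidoreductase, was lower as well (-1.06, SE 0.18, adjusted p = 0.015). Without the KO pair their adjusted p was 0.067, 0.059 and 0.066, and without the WT pair 0.062, 0.079 and 0.062. TP53INP1 also lost the call without the OE without Dox pair (0.087).

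Most lists of cell identity and signalling had no called gene, beside 5.2% of all tested genes in either direction. No gene was called among the tested MGE (14), LGE and CGE (15), GABAergic (18), dorsal telencephalon (17), choroid plexus (12), hypothalamus (14) and eye field (8) lists, nor among the SHH (15), WNT (16), NOTCH (11) and FGF (17) pathway lists, by limma at an adjusted p of 0.05. Lists without a call could still differ within groups, in opposite directions. The FGF list had medians of 1.15, 0.40, 0.15 and -0.68 for WT, KO, OE without Dox and OE with Dox. The hypothalamus list had -0.52, 0.88, 0.48 and 0.08. Both were picked after their values were seen. The 11 lists were put together because limma called none of their genes, so that 0 was fixed by the choice. It may also lower the counts that follow, which are no separate evidence that identity was stable. Of the 152 genes of these 11 lists, 24 had an unadjusted limma p under 0.05, beside 2130 higher and 1801 lower of all 16279 tested genes. Of the 152, edgeR called 1 and DESeq2 3, beside 429 higher and 420 lower of all with edgeR and 437 and 323 with DESeq2. Of 25 neuronal genes 1 was higher, MAPT, the microtubule protein tau (0.67, SE 0.11, adjusted p = 0.011), and 1 lower, GAP43, a growth cone protein (-0.58, SE 0.12, adjusted p = 0.023). Without the WT pair their adjusted p was 0.056 and 0.088, and without the KO pair 0.059 and 0.084. MAPT had 0.065 without the OE without Dox pair. IRX3 and HOXB2, transcription factors of more caudal neural tissue, were the 2 of 10 midbrain, hindbrain and spinal cord genes called, both lower (-1.06, adjusted p = 0.042, and -1.51, adjusted p = 0.049). IRX3 stood at 18.0, 2.77, 7.32 and 129 in replicate 1 and at 62.4, 5.67, 16.3 and 199 in replicate 3, so that only OE with Dox had a level above 100. The counts of HOXB2 were low, at 1.89, 2.77, 3.66 and 10.2 in replicate 1 and at 15.6, 6.61, 9.97 and 25.8 in replicate 3, where 3 reads are 2.60 to 2.84. Neither was called when any pair was left out (adjusted p 0.071 to 0.17).

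**Figure D5:**
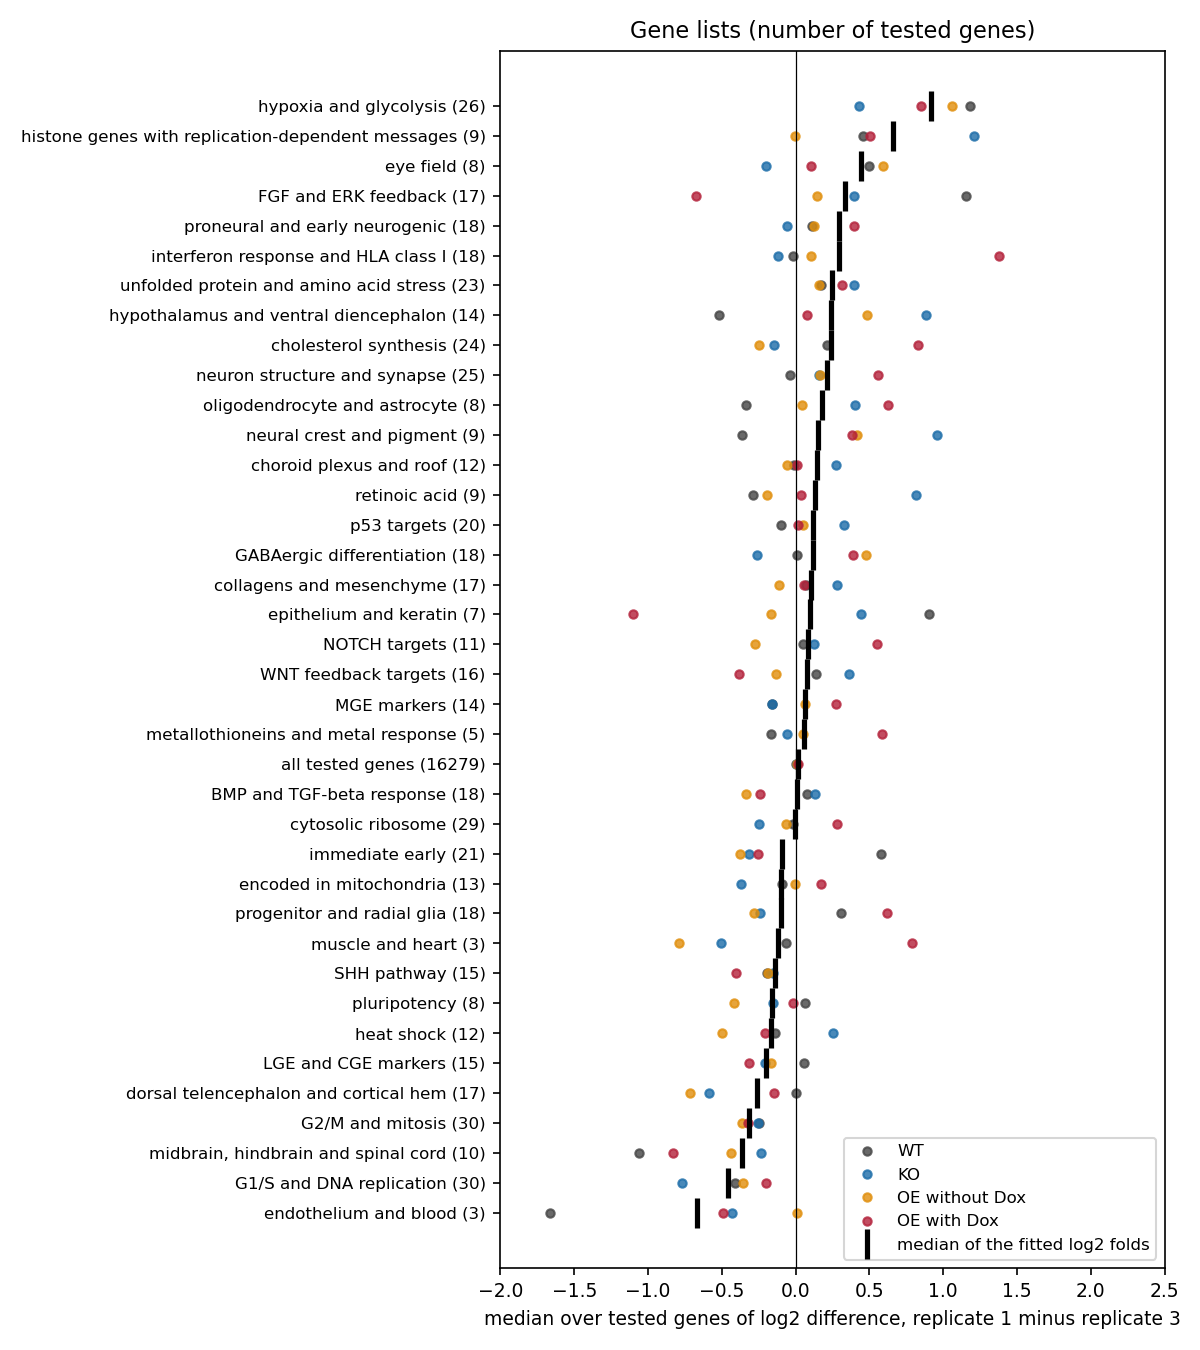
Median over the tested genes of each list (number in brackets) of the log2 difference between replicates 1 and 3, within each group (coloured points) and for the fitted log2 folds (black bars). Hypoxia and glycolysis is at the top at 0.92 with all 4 groups above 0, and G1/S and G2/M are near the bottom at -0.46 and -0.32 with all 4 below 0, while most other lists have groups on both sides of 0.

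Markers of other cells that a neurosphere could hold were read beside the 2.81% of all tested genes called higher and 2.4% called lower. Of 17 tested collagen and mesenchyme genes 1 was higher and 1 lower (median 0.11), of 9 neural crest genes 1 was higher (median 0.15), and of 7 epithelial, 3 endothelial and blood and 3 muscle genes none was called by limma, edgeR or DESeq2 and 0 had an unadjusted p under 0.05. Such a p with limma was found for 2130 higher and 1801 lower of all 16279 tested genes. The epithelial list had group medians of 0.90, 0.44, -0.17 and -1.10 for WT, KO, OE without Dox and OE with Dox. The endothelial and blood list had -1.67, -0.43, 0.01 and -0.49, and the muscle list -0.06, -0.51, -0.79 and 0.79. These lists had no common direction, so the lack of calls does not show stable levels. PDGFRB, the receptor of PDGF on pericytes and mesenchyme, had the largest fold of the genes called in these lists: it stood at 121, 225, 150 and 82.2 in replicate 1 of WT, KO, OE without Dox and OE with Dox and at 40.7, 62.4, 49.0 and 28.6 in replicate 3. No replicate 3 library reached the lowest replicate 1, and the log2 fold was 1.62 (SE 0.16, adjusted p = 0.0041, and 8.3e-04 to 0.042 with 1 pair left out). Replicate 2 stood at 53.6, 94.4, 108 and 102, and KO replicates 4 and 5 at 88.0 and 63.5. FBN1, an extracellular fibril protein, was lower (-0.51, SE 0.12, adjusted p = 0.038), and NGFR, a receptor of neurotrophins in neural crest, higher (0.81, SE 0.17, adjusted p = 0.027). FBN1 lost its call with any pair left out (adjusted p 0.062 to 0.17) and NGFR without the WT or KO pair (0.092 and 0.098).

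The list of BMP and TGF-beta response had 2 called genes of 18, 1 higher and 1 lower (5.56% each), beside 2.81% and 2.4% of all tested genes. SKIL, a repressor of SMAD proteins, was higher (0.47, SE 0.11, adjusted p = 0.036), and ID1, a direct target of BMP signalling, lower (-0.88, SE 0.21, adjusted p = 0.038). Of 24 cholesterol synthesis genes only STARD4, a sterol carrier, was called (0.55, SE 0.13, adjusted p = 0.040), which is 4.17% beside 2.81% of all called higher. Each was called with only 1 of the 4 pairs left out, SKIL without OE with Dox, ID1 without KO and STARD4 without OE without Dox. Its list had a group median of 0.83 in OE with Dox and of -0.25 in OE without Dox, so the list did not have a common direction.

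Some RNA classes that reflect library composition moved with the comparison. RN7SL2, the RNA of the signal recognition particle, stood at 1753, 2256, 1763 and 1465 in replicate 1 and at 530, 1771, 486 and 415 in replicate 3, with a log2 fold of 1.44 (SE 0.26, adjusted p = 0.037). It has near-identical copies, so its reads are uncertain, and without the WT or either OE pair the adjusted p was 0.13 to 0.19. Of the genes of the mitochondrial genome, both rRNAs and 4 of 6 tested tRNAs were called higher (medians 0.82 and 1.21), while none of the 13 protein genes was by limma (median -0.10), where 5 had an unadjusted p under 0.05, edgeR called 0 and DESeq2 2. MT-RNR1, the smaller rRNA, stood at 1588, 2449, 1810 and 1788 against 960, 1352, 705 and 713 (1.07, adjusted p = 0.0068). The share of reads from the mitochondrial genome was 2.20% to 3.03% in replicate 1 and 2.20% to 2.53% in replicate 3. Genes called higher had a median GC content of 43.4% and a median transcript length of 5347 bases, and genes called lower 56.0% and 3049 bases, against 47.5% and 3536 bases over all tested genes. Across genes, Spearman's rho of the difference with GC content was -0.14, 0.06, -0.22 and -0.30 for WT, KO, OE without Dox and OE with Dox. With a trend in GC content and length removed from each library, 387 genes were called higher and 322 lower, of which 300 and 239 were among the 457 and 390. In that fit 15 of the 26 hypoxia genes were higher and 7 of the 30 G1/S and 11 of the 30 G2/M genes lower. The part of RNA composition in the other gene differences was not tested.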

How the data were processed

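RNA sequencing values were a deposited table of normalized signal: gene read counts that the authors divided by 1 size factor per library. All low values of a library were whole multiples of 1 step, and 100.0% were whole reads at a tolerance of 0.01. Per the submitters' processing notes, TopHat2 2.1.1, HTSeq 0.9.1, R 3.4.0, DESeq2 (no version given) and build hg38 were used. The strand setting and the annotation release are not given in the sources used here. So reads of overlapping antisense genes cannot be told apart, and FANCA, TYMS and others with such partners are uncertain to that extent.

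Genes at 10 or more in at least 3 of the 8 libraries were fitted with limma 3.58.1 in R 4.3.3 on log2(value + 1), with group and replicate number as terms, an intensity trend and robust empirical Bayes, on 3 residual degrees of freedom (median 11.1 after moderation). The replicate coefficient is the mean of 4 within-group differences, and groups came from the genotype labels. Names, coordinates, GC content and length come from GENCODE 44, which holds 56948 of 58051 identifiers. The 8 libraries have 5233270 to 5639725 recovered reads, and a count of 0 allows up to 3 reads, a normalized count of 2.60 to 2.84. Such floors cover counting error only, since amplified reads with no molecular identifier are not separate molecules.

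The fit was repeated with a pseudocount of 0.5 or 5, with a minimum of 50 or none, after TMM or upper-quartile scaling, and with empirical Bayes not robust. Recovered reads were tested with DESeq2 1.42.0 and edgeR 4.0.16. Further alternatives were no pairing within group, all 12 libraries numbered 1 to 3 with the replicate block, and leaving out each pair. Removal of GC and length trends was added after the data were seen. The fit was tested on simulated data. The members and the 37 lists were chosen with earlier results of these data known. Named genes are CTNNB1, the 12 of largest fold in each direction among those called with a mean of at least 100 and the same sign in 4 groups, and up to 3 called members of each list or, with none called, the member of smallest p. The table holds 77 of them, and a selection is printed. Some items are not reported here.

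Whether numbers pair the libraries was checked by the correlation, across genes, of deviations from group means. Same-numbered libraries had -0.304 to 0.423 over 18 pairs (median 0.169), with 12 over 0.1 (6 of 6 for number 3, 4 of 6 for number 1 and 2 of 6 for number 2). Libraries of different numbers and groups had -0.39 to 0.356 over 36 pairs (median -0.097), with 5 over 0.1. The deviations of a group sum to 0, so these 2 sets are not separate evidence, and a pairing is not established. Figures were drawn with matplotlib 3.10.9 and tables made with numpy 2.4.6 and pandas 2.3.3 in Python 3.11.15.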

Additional observations from a re-analysis of the deposited data

Results flagged for a closer look

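For 7 named genes, 1 of the 4 within-group log2 differences between replicates 1 and 3 stood apart from the other 3 by Dixon's test for 4 values. Chance gives about 1 such flag in 20 genes, and 77 named genes were looked at.

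In KO, 2 genes differed less than elsewhere. RN7SL2 differed by 0.35 in KO and by 1.72 to 1.86 in the other groups, and FAM162A by 0.40 in KO and 1.55 to 1.67 elsewhere. In WT, 4 genes stood apart. C21orf58 differed by -1.31, against -0.91 to -0.84 elsewhere. BAX differed by -1.11, against -0.63 to -0.54. HOXB2 differed by -2.52, against -1.27 to -1.01, at counts near the floor. BOC, a co-receptor of sonic hedgehog, differed by 0.14 in WT and by -0.92 to -0.81 elsewhere, and was not called (adjusted p = 0.070, limma). In OE with Dox, DDIT4 differed by 1.94, against 0.62 to 0.76 elsewhere, with 349 in replicate 1, 790 in replicate 2 and 90.3 in replicate 3. The differences between groups themselves were not tested, as each group has 1 pair.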

How the results depend on the processing

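Counts of 457 genes higher and 390 lower in replicate 1 moved with 2 settings besides leaving out pairs. With no filter they were 942 and 681 of more genes tested, and with no pairing within group 0 and 0, where differences between groups enter the spread. Leaving out 1 pair gave 40 to 588 higher and 24 to 429 lower, by which pair is stated in the report, and fewer libraries were fitted. Under the other settings the counts were 387 to 521 and 322 to 420. The paired question was asked again with all 12 libraries and a replicate block of 3 numbers: it called 487 higher and 402 lower, and 369 and 339 of these were shared with the 8-library fit. There the called members of the hypoxia list fell to 4 of 26, of the G1/S list to 5 and of the G2/M list to 1. Those of the unfolded protein and amino acid stress list fell to 0, and 8 of the 24 leading genes lost the call. In those lists replicate 2 differed between groups. The labels do not say what the number marks. By deviations from the group means, 8 of 12 libraries correlated best with a library of their own number. No chance level was set for this count, and the 12 outcomes depend on each other, so it does not establish a pairing.

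Signs reversed for 2 genes that were never called: CTNNB1 had 0.016 with upper-quartile scaling and -0.148 to 0.086 with 1 pair left out, and MYH3 -0.68 to 0.05 with 1 pair left out. Depth limits the genes near the minimum of 10, where single reads move the value.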
